A study of Homo sapiens with 10 samples.

Results

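WT-only regions are stretches of open chromatin that both libraries of unedited DLD-1 cells called and that no library of the edited lines called. DLD-1 is an established human colorectal adenocarcinoma line. Of 157584 regions, 518 (0.329%) met this rule. The regions were built by joining all overlapping or touching windows of the KO and WT peak lists on chromosomes 1 to 22 and X, and a library called a region when it overlapped it by at least 1 bp. The regions were thus chosen by their calls in all 10 libraries, and these calls are described and not tested.

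GATA6 is a zinc-finger transcription factor of the endoderm and gut epithelium, and the study removed it from these cells in several ways. ATAC-seq was used, in which a transposase inserts adapters into accessible DNA, on 50000 viable cells a library by the Omni-ATAC method. KO cells carried a CRISPR/Cas9 disruption of GATA6. The degron line, labelled GATA6-AID-IAA7, carries GATA6 fused to an auxin-inducible degron and was derived from clones, per the labels' protocol. It gave AID_ctrl (time label 0 h, with auxin named as treatment but control in the title, read here as untreated), AID_aux (12 h, with 500 µM auxin in the protocol) and AID_wash, in which the auxin was removed again (time label 1, given without a unit). WT cells were unedited and have no treatment label. The labels do not say whether KO was a clone or a pool, or whether replicates were separate cultures, so replicate differences may be technical. The 5 groups each comprise 2 libraries.

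The deposited lists held 130807 and 116626 windows in KO, 154537 to 199036 peaks in the 6 degron libraries, and 93104 and 66078 windows in WT. They hold no read counts, so depth is unknown, and the absence of a call does not show that the chromatin was closed. Of 8 epithelial marker genes, such as EPCAM and CDH1, 7 or 8 had a call within 1000 bp of a gene end in every library. Of 4 blood markers 2 or 3 did, and of 4 fibroblast and endothelial markers 1 or 2.

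Accessible sites fall into gene starts, which are open in most cell types and often rich in CpG dinucleotides, and distal elements such as enhancers, which differ more between cell states. A CpG is a cytosine followed by a guanine, the site at which vertebrate DNA is methylated. Where a WT-only region met a gene start, the promoter sequence could be read from RefSeq (GRCh38.p14, 250 bases before to 50 after the start). The 4 promoters that follow belong to members with a gene end inside them and are shown because they span the range seen, from CpG-dense to CpG-poor. Each reads 5′ to 3′ on the gene's own strand, and capitals mark CpG dinucleotides.
SYCP2: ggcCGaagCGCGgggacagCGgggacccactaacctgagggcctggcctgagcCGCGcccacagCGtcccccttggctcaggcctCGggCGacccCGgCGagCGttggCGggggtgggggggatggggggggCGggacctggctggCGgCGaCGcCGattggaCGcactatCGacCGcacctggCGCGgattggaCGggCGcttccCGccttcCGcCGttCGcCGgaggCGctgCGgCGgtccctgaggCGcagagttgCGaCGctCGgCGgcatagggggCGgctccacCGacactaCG
POU3F2: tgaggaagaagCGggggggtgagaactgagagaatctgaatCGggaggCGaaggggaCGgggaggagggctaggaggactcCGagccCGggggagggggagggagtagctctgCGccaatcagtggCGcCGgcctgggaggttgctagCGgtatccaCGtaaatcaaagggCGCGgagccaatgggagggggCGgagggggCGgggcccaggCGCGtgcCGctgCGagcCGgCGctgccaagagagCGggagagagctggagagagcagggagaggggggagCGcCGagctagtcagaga
OR2L13: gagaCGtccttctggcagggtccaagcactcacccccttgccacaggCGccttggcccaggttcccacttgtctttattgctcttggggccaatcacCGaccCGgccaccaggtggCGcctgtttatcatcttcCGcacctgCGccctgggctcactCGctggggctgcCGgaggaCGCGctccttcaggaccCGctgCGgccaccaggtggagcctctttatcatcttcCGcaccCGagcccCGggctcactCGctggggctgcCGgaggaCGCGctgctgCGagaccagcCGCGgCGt
BNIP5: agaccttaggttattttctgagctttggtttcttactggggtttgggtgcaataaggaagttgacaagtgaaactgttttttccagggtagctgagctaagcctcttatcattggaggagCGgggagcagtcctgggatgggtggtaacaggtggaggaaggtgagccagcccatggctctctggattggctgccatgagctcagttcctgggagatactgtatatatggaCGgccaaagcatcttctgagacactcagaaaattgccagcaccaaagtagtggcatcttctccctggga

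SYCP2 (chr20:59933588-59933887, minus strand) had 41 CpGs in 300 bases, POU3F2 (chr6:98834324-98834623, plus strand) and OR2L13 (chr1:247936927-247937226, plus strand) had 24 each, and BNIP5 (chr6:36336839-36337138, minus strand) had 2. The OR2L13 promoter held 2 GATA motifs and the BNIP5 promoter held 1, where a GATA motif is AGATAA or TGATAA, or the variant AGATAG or TGATAG, on either strand. The SYCP2 and POU3F2 promoters held none in these 300 bases. Of the 300 bases, the WT-only regions covered 68 in SYCP2, 288 in POU3F2, 232 in OR2L13 and 277 in BNIP5.

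WT-only regions stood at the edge of a larger set. Both WT libraries called 53253 regions, of which neither KO library called 1958 (3.68% of them, and 1.24% of all 157584 regions) and no degron library called 1279 (2.4%). The 518 regions that met both conditions were 26.5% of the 1958. Over all 157584 regions, 49906 (31.7%) had no degron call. For scale, 30771 regions (19.5%) were called by both KO libraries and neither WT library. Of the 1958 regions that WT had and KO lacked, all 6 degron libraries called 824 and none called 518, while 1 to 5 of them called the other 616. Just outside the rule lay 107 regions that only 1 degron library called. AID_ctrl accounted for 27 and 28 of these in replicates 1 and 2, AID_aux for 15 and 7, and AID_wash for 8 and 22. A further 142 regions of both WT libraries had no degron call and 1 KO call, 110 of them in KO replicate 1 and 32 in KO replicate 2. Another 619 had calls in both KO libraries.

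**Figure D1:**
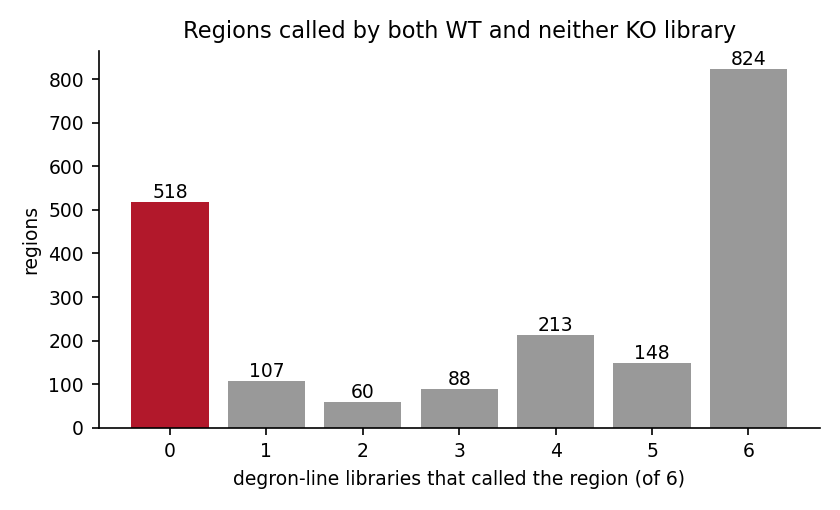
Number of regions (y axis) called by both WT libraries and neither KO library, by how many of the 6 degron-line libraries called them (x axis). The red bar is the 518 WT-only regions, and the grey bars run from 60 regions with 2 degron calls to 824 with all 6.

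Sharing between the WT replicates was rare among such regions. WT replicate 1 alone called 6359 regions and WT replicate 2 alone 7861, so the 518 shared regions made up 3.51% of the 14738 regions with a WT call and no other. The same count for KO gave 12660 regions called by both KO libraries and by no other (8.03% of all regions), which were 41.7% of the 30387 with a KO call and no other. Over all regions, WT replicates 1 and 2 called 90360 and 63870, and 53253 of these were shared. KO replicates 1 and 2 called 129296 and 114999, and 106995 were shared. Sharing was thus lower in WT than in KO over all regions too. The requirement for both WT libraries set the size of the group: without WT replicate 1 the rule gave 8398 regions and without WT replicate 2 it gave 6891. Leaving out any 1 of the other 8 libraries gave 525 to 629. With a stricter degron threshold, the top 50% of each degron list by −log10 p, 892 regions had no degron call.

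The WT windows of the 2 replicates lay farther apart in WT-only regions than in regions with wider support. Each window is 500 bp wide, and its centre marks the position of the call. In the 511 WT-only regions with exactly 1 window from each WT library, the centres were a median of 83 bp apart (95% interval 72 to 98), with the middle 50% between 27 and 198 bp. The median was 46 bp (40 to 50) in the KO losses that a degron library called and 53 bp (52 to 54) in regions called by all 10 libraries. Centres were within 50 bp in 38.7% of WT-only regions, against 53.5% and 48.5%, and more than 250 bp apart in 17.4% of them, against 5.68% and 4.53%. In regions called by both KO libraries alone, KO replicate centres were a median of 27 bp apart (27 to 28), with 1.33% beyond 250 bp. Across these sets the distance thus did not follow the number of libraries that called a region. The 95% intervals are those of the median and treat regions as independent. Regions are not replicates, and no test was made. WT-only regions were 500 to 1280 bp wide, with a median of 584 bp.

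**Figure D2:**
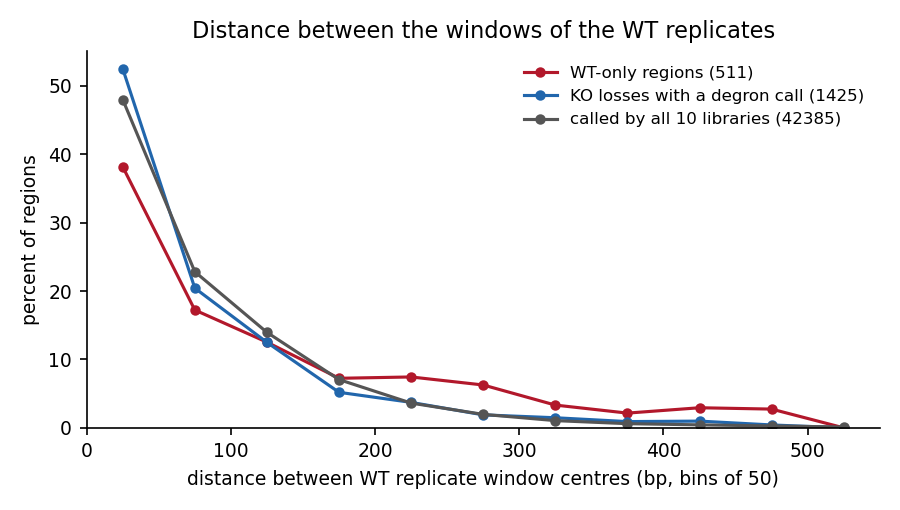
Percent of regions (y axis) by the distance between the centres of the WT replicate 1 and WT replicate 2 windows in bins of 50 bp (x axis, to 550 bp), for regions with 1 window from each. The WT-only curve starts lowest, with 38.2% in the bin under 50 bp, and is the highest of the 3 in each bin between 150 and 500 bp.

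The closest pairs included 4 WT-only regions in which both WT windows had identical coordinates. They lay at chr1:28322172-28322671, 6618 bp from MED18, a subunit gene of the Mediator complex, at chr6:168840903-168841402 with no protein-coding gene within 100 kb, at chr7:71636296-71636795 inside GALNT17, a glycosyltransferase gene, and at chr7:100998451-100998950 inside MUC12, which encodes a membrane mucin of the colon. The MED18 region lay 6269 and 6275 bp from the nearest window of KO replicates 1 and 2 and 5920 to 6101 bp from the nearest peak of the 6 degron libraries. The GALNT17 region was closer to other calls, 2408 and 2308 bp in KO and 835 to 2173 bp in the degron libraries. At the other end stood the wide regions: 7 of the 10 widest held 2 windows of 1 WT library, led by chr2:88773210-88774489 (1280 bp, 22921 bp from RPIA) and chr2:48155438-48156663 (1226 bp, with no protein-coding gene within 100 kb).

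Few WT-only regions were narrow misses of a neighbouring call. The nearest KO window lay a median of 6315.5 bp away and the nearest degron peak 7939.5 bp away. A KO window or degron peak lay within 500 bp of 33 of the 518 (6.37%) and beyond 100 kb for 26 (5.02%). Regions of 1 WT library alone had a call of the edited lines within 500 bp in 7.58% (WT replicate 1) and 7.24% (WT replicate 2) of cases, and beyond 100 kb in 1.82% and 1.603%. Among the closest was a region at chr21:44590940-44591467, over an end of KRTAP10-6, a hair keratin-associated protein gene within TSPEAR. It lay 191 and 470 bp from windows of KO replicates 1 and 2 and 104 to 9139 bp from the nearest peak of each degron library.

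Near gene ends WT-only regions had a share like that of regions called by a single WT library, while a smaller share of them lay in gene bodies. Of the 518, 22 (4.25%, Wilson 95% interval 2.82 to 6.35) had a protein-coding gene end within 1000 bp, against 19.4% (17.4 to 21.5) of KO losses with a degron call, 24.0% of regions called by all 10 libraries and 11.5% of all regions. The share was 3.96% (3.51 to 4.47) for regions of WT replicate 1 alone, 4.55% (4.12 to 5.04) for WT replicate 2 alone and 3.34% (3.04 to 3.67) for both KO libraries alone. Of the WT-only regions 202 midpoints (39.0%, 34.9 to 43.3) fell inside a protein-coding gene, against 49.6% and 47.5% for regions of a single WT library, 49.7% for regions of both KO libraries alone and 51.9% of all regions. No protein-coding gene lay within 100 kb of 138 of the regions (26.6%, 23.0 to 30.6), against 16.4% and 15.8% for WT replicates 1 and 2 alone, 18.3% for both KO libraries alone and 13.1% of all regions. Among regions 501 to 600 bp wide the same shares were 37.7% in gene bodies and 31.0% without a gene within 100 kb for WT-only regions, and 50.9% and 13.4% for all regions. Without the 95 regions in 1 Mb bins that hold 3 or more, the share in gene bodies was 43.3% of 423. Regions are not replicates, so these intervals cover counting error only.

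**Figure D3:**
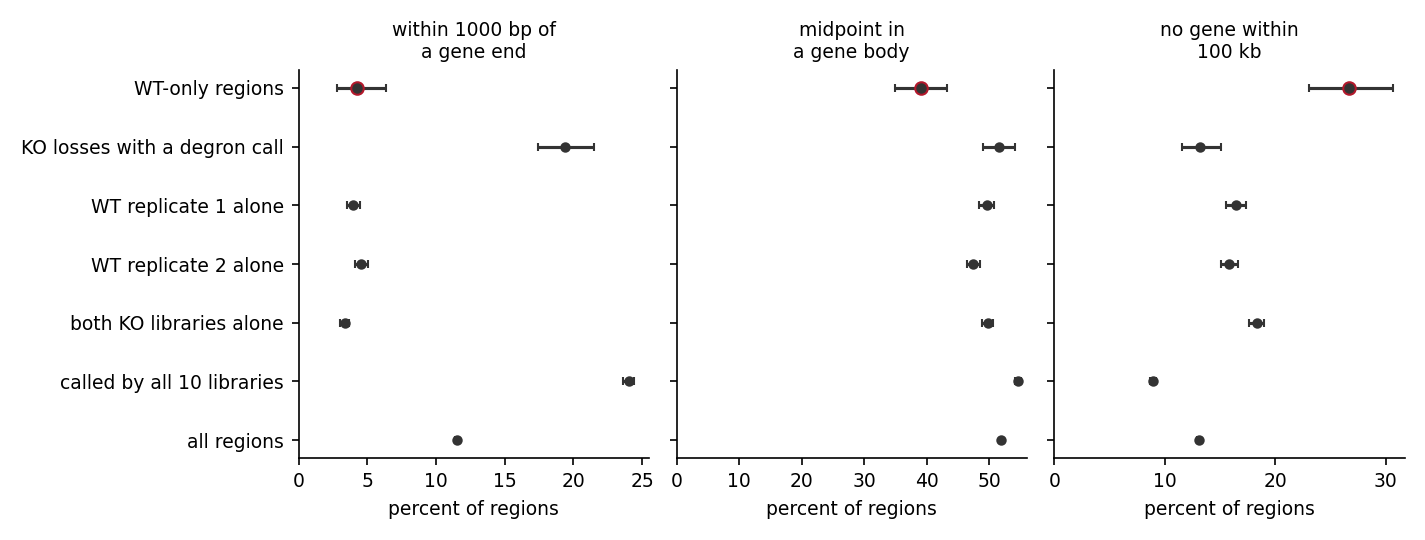
Percent of regions (x axis) within 1000 bp of a protein-coding gene end, with the midpoint in a gene body, and with no protein-coding gene within 100 kb, for 7 sets of regions (rows). Points are shares and bars Wilson 95% intervals. The red points, WT-only regions, stand at 4.25%, 39.0% and 26.6%.

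Within 100 kb and within 1 Mb, a larger share of WT-only regions than of the other sets had no region called in every library. Within 10 kb that share was above those of the other sets except the regions of a single WT library. Within 10 kb, 72.8% of WT-only regions (68.8 to 76.4) had none, against 76.0% and 77.9% of regions of WT replicate 1 or 2 alone. It was 67.9% for both KO libraries alone, 37.4% for KO losses with a degron call and 61.6% of all regions. No region called by all 10 libraries lay within 100 kb of 116 WT-only regions (22.4%, 19.0 to 26.2). That share was 12.7% and 13.5% for regions of WT replicate 1 or 2 alone, 13.8% for both KO libraries alone, 7.15% for KO losses with a degron call and 8.78% for all regions. Within 1 Mb, 22 WT-only regions (4.25%) had none, against 0.582% and 0.916% for WT replicates 1 and 2 alone.

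WT-only regions were spread over every chromosome analysed but were unevenly dense. They made up 0.973% of all regions that both WT libraries called. On chromosome 21 the share was 3.90% (29 of 744), on chromosome 22 it was 1.71% (20 of 1169), on chromosome 14 1.68% (29 of 1728) and on chromosome 7 1.63% (45 of 2766). It was lowest on chromosome 12 (0.464%, 12 of 2585) and chromosome X (0.504%, 5 of 992). Most stood alone: 431 of the 518 had no other WT-only region as the next or previous region of both WT libraries. The other 87 formed 31 runs, 11 of which held 3 or more.

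Several of the longest runs, and the 1 Mb bin with most WT-only regions, lay beside centromeres. Near-identical copies of sequence make the placement of reads uncertain there. A run of 8 on chromosome 14 (16104019 to 19901607) lay around POTEM, of the POTE family, and OR4K2, an olfactory receptor gene. In this span KO libraries had 9 and 5 called intervals, AID_ctrl 1 and 1, AID_aux 3 and 2, AID_wash 1 and 1, and WT 23 and 28. Between 10 and 11 Mb of chromosome 21, near TPTE, 12 WT-only regions stood among 23 regions of both WT libraries. KO libraries had 9 and 12 called intervals there, AID_ctrl 6 and 6, AID_aux 9 and 7, AID_wash 6 and 11, and WT 33 and 35. The WT counts include the WT-only regions themselves, by which these spans were picked, so they describe the spans and no more. On chromosome 20 between 29 and 30 Mb all 5 regions of both WT libraries were WT-only, and the counts were 4 and 1 in KO, 1 and 0 in AID_ctrl, 0 in each AID_aux and AID_wash library, and 7 and 14 in WT.

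The run of 6 on chromosome 22 (15849659 to 17037478, reaching GAB4) was mixed. KO libraries had 12 and 10 intervals there, the degron libraries 8 to 18, and WT 10 and 6, so the span as a whole was called in every library. These calls were uneven along it. Between 15 and 16 Mb, 3 of 5 regions of both WT libraries were WT-only. KO libraries had 3 and 3 intervals in that bin, the degron libraries 0 to 2, and WT 7 and 10. No degron peak lay in the 633.089 kb from 15925148 to 16558236. CWH43 had 4 WT-only regions assigned to it, but all lay 32871 to 94386 bp past the gene toward the centromere of chromosome 4. The runs at NPIPA6 and NPIPA7 on chromosome 16 and at TPTE lie at genes of families with near-identical copies, so their values are uncertain. The 8 regions between 105 and 106 Mb of chromosome 14 did not share this pattern of few calls, since 55 regions of both WT libraries stood in that bin, with 95 and 87 intervals in KO, 46 to 63 in the degron libraries and 96 and 73 in WT.

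Away from the centromeres, 2 runs stood in wide gaps of the degron lists. The first was inside ADGRL2, which encodes latrophilin-2, an adhesion G protein-coupled receptor. The gene body (chr1:81306132-81993932) held 10 regions, 4 of them WT-only. KO replicate 1 called 3 of the 10, KO replicate 2 called 1, each of the 6 degron libraries 0, WT replicate 1 all 10 and WT replicate 2 6. The WT-only regions were at chr1:81678420-81679202, chr1:81681536-81682169, chr1:81682417-81682986 and chr1:81731833-81732347. Their WT windows were 283, 134, 70 and 15 bp apart. The nearest KO windows were 17701 to 71114 bp away in replicate 1 and 127194 to 180607 bp in replicate 2, and the nearest degron peak was 644987 bp away or farther. No degron library called anything over 2158.91 kb around the gene, a stretch in which both KO libraries called 6 regions and both WT libraries 10. In the gene body the KO replicates had 3 and 1 calls and the degron line none. This locus and the run below were picked by their WT-only regions, and KO and degron lists were made differently. These counts describe the loci and no more.

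The other run held 5 WT-only regions on chromosome 7 (68813594 to 69395635), 202840 to 784318 bp from the nearest protein-coding gene end, that of AUTS2, a gene of neural development. In this span KO replicates 1 and 2 had 1 window each, in the same region, the 6 degron libraries 0, and WT replicates 1 and 2 had 8 and 5. The 5 regions lay 149052 to 290934 bp from the nearest window of KO replicate 1. WT window centres were 64, 126, 26, 48 and 17 bp apart. The degron lists were empty over 1600.01 kb here, and both KO libraries called 6 regions in that stretch. A sixth WT-only region (chr7:69907544-69908185) lay inside AUTS2 itself, 13938 bp from the nearest window of both KO libraries.

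**Figure D4:**
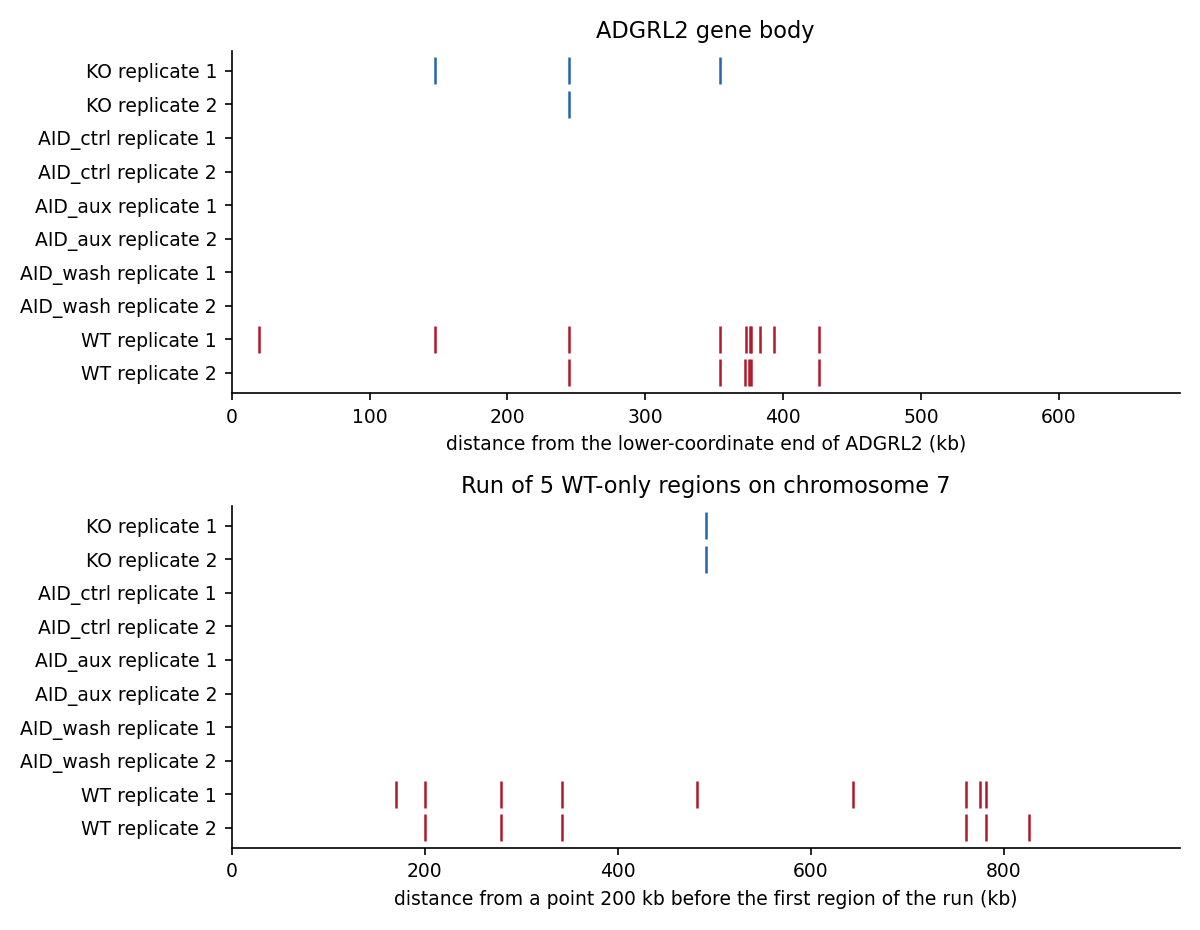
Called intervals (vertical marks) in each of the 10 libraries (rows) along the ADGRL2 gene body and around the run of 5 WT-only regions on chromosome 7, by distance in kb (x axis). The 6 degron rows hold no mark, KO holds 3 and 1 marks in ADGRL2 and 1 and 1 at the run, and the WT rows at the bottom hold 10 and 6, then 9 and 6.

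In all, 75 stretches of at least 500 kb had no degron peak and held a region of both WT libraries. They contained 51 WT-only regions (9.85% of the 518), which were 38.3% of the 133 regions of both WT libraries there. Among all 1279 regions of both WT libraries without a degron call the share was 40.5%, so WT-only regions were not more frequent in the stretches. On chromosome 4 a pair of WT-only regions past CCSER1 had WT centres 1 bp apart in the first (chr4:91758412-91758912), which lay 478056 and 478068 bp from the nearest KO windows and 628596 bp or more from any degron peak. These stretches were defined after the values were seen.

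Genes with several WT-only regions were few. The 380 regions with a protein-coding gene within 100 kb were assigned to 349 genes, of which 327 had 1, 17 had 2 and 5 had 3 or 4. MUC12 had 3, at chr7:100994680-100995202, chr7:100998451-100998950 and chr7:100999265-100999873, with WT centres 23, 0 and 109 bp apart. All 3 lay inside the gene within 5.19 kb, a span without any KO or degron call. MUC12 codes for tandem repeats, in which the placement of reads is uncertain. Of its 8 regions KO libraries called 4 and 3, the degron libraries 2 to 4 and WT libraries 6 and 6.

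EGFR, the epidermal growth factor receptor gene, had 2 WT-only regions among 41. One at chr7:55204270-55205053 was inside the gene, and one at chr7:55224121-55224825 was 12845 bp past it. Both KO libraries called 28 regions of EGFR, both WT libraries 20 and all 10 libraries 17, so most regions of EGFR were also called in the edited lines. Of the other genes with 2, CCDC85A had 1 inside and 1 outside 62799 bp away, ACTR3C had 2 inside, and CNTNAP3 and GAB4 had 2 each outside.

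At gene ends, 10 WT-only regions contained an end of a protein-coding gene. They lay at OR2L13, an olfactory receptor gene; BNIP5; POU3F2, a transcription factor of neural development; SPDYE1, one of a family of near-identical copies; PPP1R42; NXNL1; GP6, the collagen receptor of platelets; ZNF835, a zinc-finger gene; SYCP2, a component of the synaptonemal complex of meiosis; and KRTAP10-6. The POU3F2 region (chr6:98834336-98834916) had WT centres 81 bp apart and lay 4805 and 10700 bp from the nearest KO windows and 4976 to 10918 bp from the nearest degron peaks. The OR2L13 region (chr1:247936995-247937613) lay 29968 bp or more from any call of the edited lines, and the ZNF835 region (chr19:56670902-56671889) 32476 bp or more. The BNIP5 region (chr6:36336862-36337368) had WT centres 7 bp apart, with KO windows 1131 and 1164 bp away and degron peaks 713 to 814 bp away.

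By strand-aware gene starts, 14 WT-only regions (2.70%, 1.62 to 4.49) overlapped 1 or more of 34961 RefSeq promoter windows, lncRNA genes included. That share was 8.89% in KO losses with a degron call, 20.3% in regions called by all 10 libraries, 7.69% in all regions, and 1.49% and 1.53% in regions of WT replicate 1 or 2 alone. The 14 regions met 17 promoters, since 3 of them met a pair: GREM1 with GREM1-AS1, SYCP2 with FAM217B, and ZNF835 with LOC105372473. GREM1 encodes a secreted antagonist of bone morphogenetic proteins and was singled out after its values were seen. Its region (chr15:32718457-32719076) covered the start used for the promoter window (32718484). The gene body used for gene ends begins at 32718004, 453 bp from the region, so no GREM1 end lies inside it. WT centres of this region were 120 bp apart. It lay 11142 and 8691 bp from the nearest KO windows and 8825 to 11353 bp from the nearest degron peaks.

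The promoters met by WT-only regions were CpG-rich more often than those without calls and less often than those called in every library. Their median was 20 CpGs in 300 bases, with a range of 2 to 41. CpGs were counted over the whole window, of which the WT-only regions covered from 31 bases (ZBTB45) to all 300. Promoters with a call in all 10 libraries had a median of 27, those with a call in no library 4 and all promoters 14. As CpG-rich counted promoters with at least 55% G and C and an observed-to-expected CpG ratio of at least 0.6. Of the 17 promoters 10 (58.8%) were CpG-rich, against 80.3% of the 10408 called in all libraries, 17.2% of the 16575 called in none and 44.4% of all. GREM1 had 31 CpGs and ZNF835 29, besides SYCP2, POU3F2 and OR2L13 shown in full, while AQP4, a water channel gene, had 4 and SPDYE1 2. Both promoters were CpG-rich in each pair met by a single region, so these regions count double among the 10, which raises the share. With 17 promoters, some of them overlapping in pairs, these shares are a description.

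**Figure D5:**
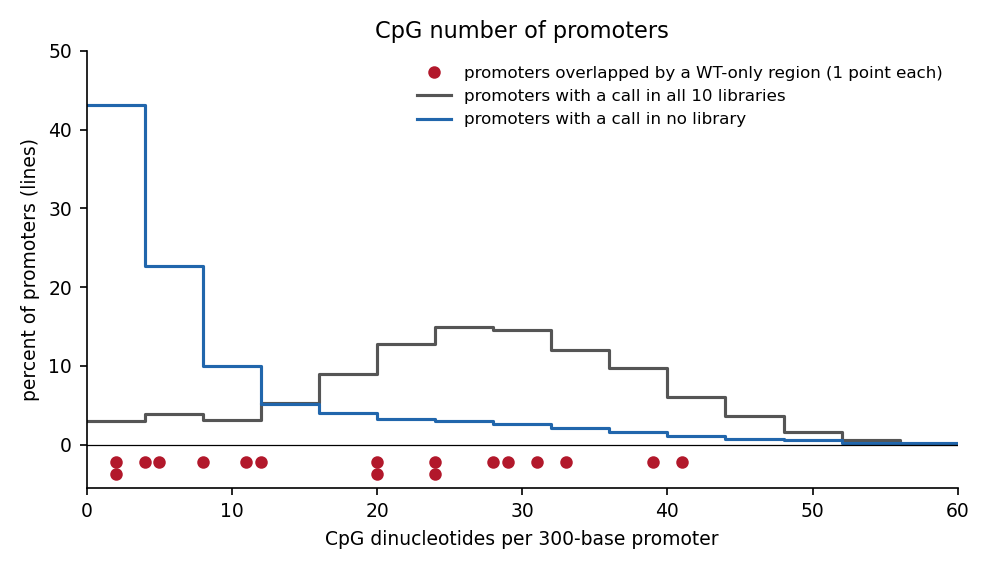
CpG dinucleotides per 300-base promoter (x axis). Lines give the percent of promoters (y axis) with a call in all 10 libraries or in none, in bins of 4, and each red point below the axis is 1 of the 17 promoters overlapped by a WT-only region, spread from 2 to 41. The axis ends at 60 CpGs, and the highest number among all promoters was 77.

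A GATA motif was present in 4 of the 17 promoters (23.5%): OR2L13, BNIP5, GP6 and ZBTB45. Motifs were searched over the whole window. The motif in ZBTB45 lay outside the 31 bases that the WT-only region covered. It was present in 24.9% of all promoters and 13.2% of those called in all libraries. The KLF/SP motif GGGCGGGG was present in 6 of the 17 (35.3%), against 22.8% of all promoters and 37.8% of those called in all libraries. The AP-1 motif TGANTCA was found in SPDYE1 and the FOX motif (TGTTTAC or its variant TATTTAC) in AQP4, against 7.68% and 5.97% of all promoters. The FOX motif in AQP4 also lay outside the covered part, here 115 bases. The TCF/LEF motif CATCAAAG and the TEAD motif GGAATG were in none of the 17, against 0.644% and 14.04% of all. Both strands were searched, and the absence of a motif says only that these letters are not in the window.

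WT-only regions were about as frequent at the listed genes as elsewhere. For 190 genes in 8 lists, both WT libraries called 1122 regions, of which 12 (1.07%) were WT-only, where the share over all regions of both WT libraries was 0.973%. Single lists held 74 to 172 such regions, too few for a count of 0 or 1 to stand apart from that share. None of the 163 such regions at 25 endoderm and intestinal transcription factors, which include CDX2, HNF4A and GATA6, was WT-only. WNT and stem cell genes had 0 of 166, YAP targets 0 of 172, and blood and immune markers 0 of 79. GATA6 itself (chr18:22169589-22202528) had 13 regions of both WT libraries and no WT-only region, and the nearest stood 4.66 Mb away, beside AQP4. Epithelial identity and junction genes had 1 of 171, at VIL1, the villin gene of microvilli (chr2:218445375-218445906). Fibroblast and endothelial markers had 1 of 74, at ERG, an ETS transcription factor gene (chr21:38493524-38494320).

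The 10 remaining regions lay at neural and channel genes. Neural and synaptic adhesion genes had 7 of 130 (5.38%), 4 in ADGRL2 and 1 each in CTNNA2, a neuronal catenin, CALN1, a neuronal calcium-binding protein, and CNTNAP2, a neurexin-family protein. Ion channel genes had 3 of 167 (1.80%), 2 inside KCNQ1, a potassium channel of epithelia and heart, and 1 at SCN3A, a sodium channel gene, 12761 bp outside it. The CTNNA2 region (chr2:79259366-79260122) lay 177234 and 457249 bp from the nearest KO windows and 39672 to 675781 bp from the nearest degron peaks. The KCNQ1 region at chr11:2549212-2549982 was close to other calls, 184 bp from a peak of AID_wash replicate 2. Of the 130 regions of both WT libraries in the neural list, 8 were at ADGRL2, and these held 4 of the 7. The share in that list thus rested in part on this gene. Loss of GATA6, the derivation of the edited lines and the 2 WT libraries themselves cannot be told apart as sources of WT-only regions. The rule itself required that no degron library called them, AID_ctrl included.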

How the data were processed

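Peak lists of 10 ATAC-seq libraries in 5 groups of 2 were analysed. Per the submitters' processing notes, Trim Galore 0.6.10, Bowtie2 2.4.2, Picard and MACS2 2.1.1 were named with build hg38. Their parameters, the transposase offset and any blacklist filter: not given in the sources used here. Each library has its own list. The 6 deposited degron lists give intervals with the authors' −log10 p-value and −log10 q-value per peak, used only for stricter thresholds. The 4 deposited KO and WT lists hold coordinates of 500 bp windows only, with no score, so the lists of the degron line and of the KO and WT cells were made differently. Read depth is unknown.

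Regions, calls, gaps and window distances were computed in Python 3.11.15 with numpy 2.4.6 and scipy 1.17.1, tested on simulated intervals. Coordinates count from 1. A region was assigned to the protein-coding gene (RefSeq, GRCh38.p14, without strand or exons) nearest to its midpoint within 100000 bp. Promoter sequences came from RefSeq with 34961 windows on the chromosomes used. All 190 listed genes matched.

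No test was made: the rule used all libraries, and regions are not replicates. Wilson intervals at 95% cover counting error only, and the interval of a median is the binomial order-statistic one. Named were the 10 genes with most regions, the 10 regions nearest to a gene end, the 10 widest, the 10 with the closest WT windows (ties by position), those at listed genes and the longest runs. The members and lists were chosen with earlier results of these data known. Motifs were searched in promoters only, since no genome sequence was used here.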

Additional observations from a re-analysis of the deposited data

How the results depend on the processing

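The number of WT-only regions stayed within 1.5 times of 518 when windows or peaks had to cover 50% of a region (626), when a call of the edited lines within 500 bp counted (485), when windows were joined only on overlap (518), over regions merged from all 10 lists (518), with unmerged windows that overlapped by at least 250 bp (428) and with degron peaks of −log10 q of at least 5 (629). It was 892 with the top 50% of each degron list, because fewer peaks were left to call a region. Leaving out each library in turn gave 525 to 8398, the largest values without WT replicate 1 or 2, where a single WT call suffices. The share within 1000 bp of a gene end was 3.98% to 4.59% with a library left out and 9.27% within 3000 bp. The share in gene bodies was 37.7% to 48.7%, with 46.9% without WT replicate 1 and 48.7% without WT replicate 2. The median distance between WT centres was 79 to 83 bp without any KO or degron library. Added after the data were seen, leaving out members in 1 Mb bins with 3 or more gave 423 regions, 5.20% near gene ends, 43.3% in gene bodies and 88.5 bp, and keeping members whose WT windows overlap by at least 250 bp gave 422 regions, 4.50% and 38.4%. No paired analysis was possible because the results come from no test. With 2 libraries a group and no depth, counts cannot be set against replicate spread.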
